A study of Mus musculus with 6 samples.

Results

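The linker histone H1 genes are a family of 7 genes in this table: Hist1h1a, Hist1h1b, Hist1h1c, Hist1h1d and Hist1h1e, which are replication-dependent, and the replacement forms H1f0 and H1fx. The rule that picks them goes by gene name. All 7 were found among the 23094 rows that carry a gene name, each on 1 row. The row of Hist1h1e also names the core histone gene Hist1h2be, so its value cannot be assigned to the linker histone alone. The study sequenced RNA of erythroid cells sorted as CD71+Ter119+ from mouse fetal liver at embryonic day 13.5, in 3 libraries labelled Tfam KO and 3 labelled Tfam WT, all of the strain C57BL/6. CD71 is the transferrin receptor, Ter119 is a surface antigen of the red cell lineage, and Tfam encodes the factor that packages and transcribes mitochondrial DNA. The labels name no Cre driver or deleted exon and no litter, sex or batch, and do not state that each replicate was its own embryo. The p-values therefore reflect only how these libraries varied, which may be technical. The comparison asks which transcripts of erythroblasts differ when Tfam is deleted.

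Linker histones bind the nucleosome where DNA enters and leaves it and help to fold chromatin, which is condensed as erythroblasts mature and lose their nucleus. The replication-dependent genes lie in the large histone cluster and are transcribed mainly in S phase, when new chromatin is assembled. Their mRNAs typically end in a stem-loop in place of a poly(A) tail. H1f0 and H1fx lie outside the cluster, give polyadenylated mRNAs and can be made outside S phase, and H1f0 is known to accumulate as cells stop dividing and differentiate.

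The upstream sequences differ between these classes. The 140 bases before the annotated start are shown because the replication-dependent members carry short elements at nearly matching distances, and H1f0 does not. They come from RefSeq on build GRCm38.p6, whereas the expression values were made on mm9, and all 7 members were matched. The stretches are chr13:23763528-23763667 (plus strand) for Hist1h1a, chr13:21780626-21780765 (minus) for Hist1h1b, chr13:23738667-23738806 (plus) for Hist1h1c, chr13:23554892-23555031 (plus) for Hist1h1d, chr13:23622559-23622698 (minus) for Hist1h1e and chr15:79028072-79028211 (plus) for H1f0. Capitals mark, from 5′ to 3′, AAACACA (the H1 box), CCAAT or its reverse complement, and TATAAA or TATATA; the TATA motifs overlap each other in several members.
Hist1h1a: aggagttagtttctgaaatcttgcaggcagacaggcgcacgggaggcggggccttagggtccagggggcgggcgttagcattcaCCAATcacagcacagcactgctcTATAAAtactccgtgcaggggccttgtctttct
Hist1h1b: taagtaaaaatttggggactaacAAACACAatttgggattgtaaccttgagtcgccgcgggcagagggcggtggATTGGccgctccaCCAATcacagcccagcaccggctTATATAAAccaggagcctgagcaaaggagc
Hist1h1c: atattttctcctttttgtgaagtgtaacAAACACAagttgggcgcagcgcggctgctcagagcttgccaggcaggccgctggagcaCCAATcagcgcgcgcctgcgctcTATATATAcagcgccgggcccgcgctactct
Hist1h1d: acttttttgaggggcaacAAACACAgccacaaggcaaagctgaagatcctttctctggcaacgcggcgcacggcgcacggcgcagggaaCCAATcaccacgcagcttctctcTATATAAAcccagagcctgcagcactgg
Hist1h1e: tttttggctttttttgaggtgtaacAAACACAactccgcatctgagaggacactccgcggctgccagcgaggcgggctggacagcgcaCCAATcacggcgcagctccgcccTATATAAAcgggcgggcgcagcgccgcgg
H1f0: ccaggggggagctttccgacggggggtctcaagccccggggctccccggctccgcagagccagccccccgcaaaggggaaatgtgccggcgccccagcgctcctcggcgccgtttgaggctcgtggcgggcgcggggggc

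AAACACA was found in the 300-base windows, which run from 250 bases before the start to the first 50 of the gene, of Hist1h1b, Hist1h1c, Hist1h1d and Hist1h1e, beginning 112 to 122 bases before the start. The window of Hist1h1a held no such match on either strand, and neither did those of H1f0 and H1fx. CCAAT began 51 to 56 bases before the start in the 5 replication-dependent members. H1f0 and H1fx held neither CCAAT nor the TATA motifs, and their windows were 75.0% and 77.7% G or C, against 45.7% to 54.3% for the replication-dependent members. Of 32851 such windows of all genes, 7.18% held AAACACA, 37.4% CCAAT, 17.1% a TATA motif and 2.67% both AAACACA and CCAAT, counting both strands. A match describes the letters and does not show a working site.

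The histone stem-loop, the 3′ element bound by Slbp, was looked for in the GENCODE transcripts (build GRCm38). It is shown where a full match of the 16-base consensus was found, in capitals with 5 bases on each side, because it is the feature that sets these mRNAs apart from those of H1f0 and H1fx. The sites are chr13:23739507-23739532 (plus strand), chr13:23555782-23555807 (plus) and chr13:23621777-23621802 (minus).
Hist1h1c: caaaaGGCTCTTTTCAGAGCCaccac
Hist1h1d: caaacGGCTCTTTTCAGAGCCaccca
Hist1h1e: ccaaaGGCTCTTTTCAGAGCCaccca

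The transcript of Hist1h1a ended with the first 15 bases of the consensus, and that of Hist1h1b ended at its stop codon, so neither model could hold the whole element. The models of Hist1h1c, Hist1h1d and Hist1h1e run 880, 4931 and 1209 bases past the stop codon, and so beyond the stem-loop. H1f0 and H1fx had no full match in transcripts that run 1198 and 369 bases past the stop codon. Among all GENCODE gene names 0.107% had one, and among the 70 clustered histone names 65.7%. The TruSeq RNA kit named in the labels is known for capturing RNA by its poly(A) tail, so these values cover tail-less histone mRNAs only as far as they entered the libraries.

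Some facts of the libraries touch these results. RPKM sums were 424377 to 535933 in the KO libraries, and 423263 to 461927 in WT replicates 1 and 2 and 815524 in WT replicate 3. WT replicate 3 stands apart: Rn45s, the ribosomal RNA precursor, was at 782 to 1140 RPKM in KO libraries, and at 869 and 940 in WT replicates 2 and 1 and 5530 in WT replicate 3. Rows with transcripts of 500 to 1000 bases, the size class of the replication-dependent members, lay a median of 0.88 above their mean over all libraries on the log2(RPKM + 1) scale in WT replicate 3, and between -0.37 and 0.05 in the other libraries. Malat1, a long nuclear RNA, was at 202, 181 and 76.5 RPKM in KO libraries and 158, 211 and 46.6 RPKM in WT libraries. Tfam was at 5.92, 7.22 and 6.25 RPKM in KO libraries and 7.22, 8.44 and 5.72 RPKM in WT libraries, so gene-level values do not check the labels. Summed levels of 8 erythroid markers were 8560 to 12800 RPKM in KO libraries and 9770 to 14000 RPKM in WT libraries. Read depth is unknown, so no counting interval can be given.

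Hist1h1c was the most abundant H1 transcript in each of the 6 libraries. Its level was 498, 347 and 143 RPKM in KO replicates 1 to 3 and 539, 322 and 348 RPKM in WT replicates 1 to 3. KO replicate 3 was the lowest, and the groups overlapped. Next in each library came Hist1h1d and then Hist1h1b, and the row of Hist1h1e stood above only H1fx, which was under 0.5 RPKM throughout. Hist1h1a and H1f0 held the middle and changed places. H1f0 was above Hist1h1a in KO replicates 2 and 3 and below it in KO replicate 1 and in the 3 WT libraries. RPKM is a level per transcript length, so the values can be ordered, but a short transcript's RPKM also depends on the assumed end of the gene. The order of these members also depends on how far their mRNAs, with or without a tail, entered the libraries, which was not tested.

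**Figure D1:**
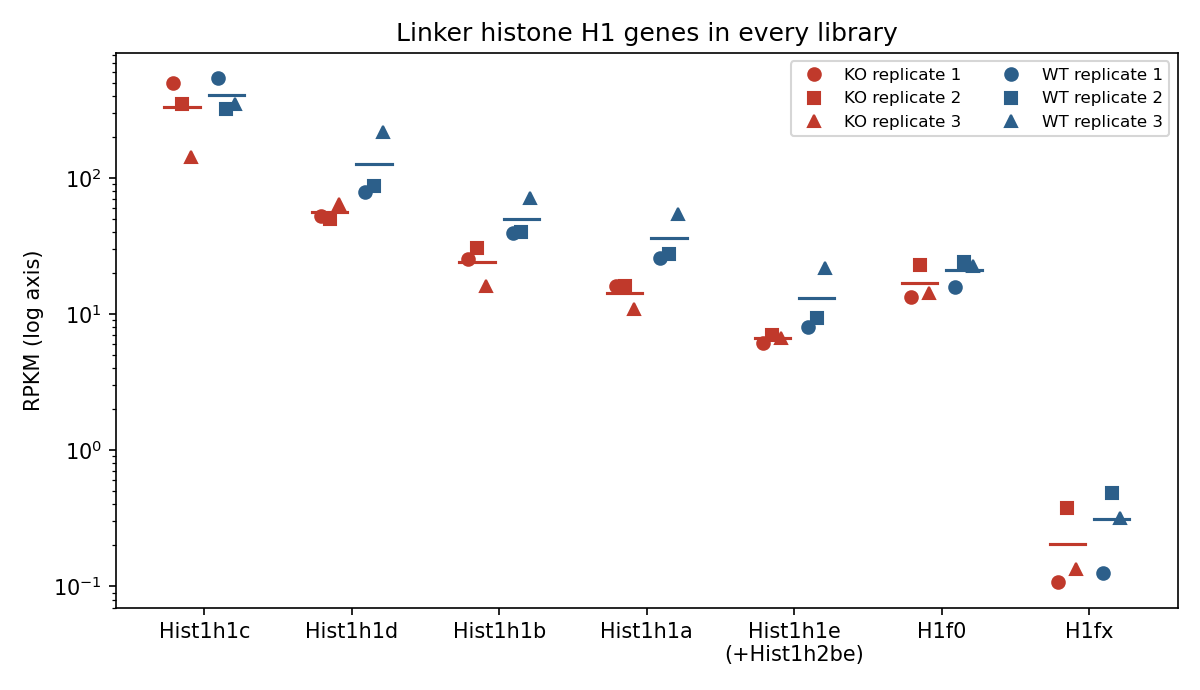
RPKM of the 7 H1 genes on a log axis, with KO libraries in red to the left and WT libraries in blue to the right of each gene; marker shapes give the replicate number and bars the group means. For Hist1h1a, Hist1h1b, Hist1h1d and the Hist1h1e row the 3 KO points lie under the 3 WT points, and the highest WT point is replicate 3.

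In all, 4 of the 5 replication-dependent members were lower in every KO library than in any WT library. Hist1h1a was at 16.1, 16.1 and 10.9 RPKM in KO libraries and 26.0, 27.7 and 54.2 RPKM in WT libraries, or 14.4 ± 3.05 and 36.0 ± 15.8 (SD, n = 3 each). The highest KO library thus lay well under the lowest WT library, and WT replicate 3 was far above the other WT libraries. Hist1h1b, a main form of dividing cells, was at 25.5, 30.5 and 16.1 RPKM in KO libraries and 39.1, 39.9 and 71.7 RPKM in WT libraries. Hist1h1d was at 52.4, 50.1 and 64.5 RPKM in KO libraries and 78.6, 87.0 and 216 RPKM in WT libraries. The row of Hist1h1e and Hist1h2be was at 6.12, 7.02 and 6.70 RPKM in KO libraries and 7.97, 9.34 and 21.7 RPKM in WT libraries, a narrow gap apart from WT replicate 3. Groups did not overlap in this direction in 2.36% of the 8302 rows tested. Markers of macrophages were also lower in the KO libraries: the 9 on the list summed to 4.55 to 11.7 RPKM in KO libraries and 12.2 to 18.7 RPKM in WT libraries, none was at 0 in all libraries, and 6 of the 6 tested had a lower fitted value in KO. Their part in the result was not tested.

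None of these differences passed the test across all genes. The log2 fold change on the log2(RPKM + 1) scale was -1.21 (SE 0.31) for Hist1h1a, -1.02 (SE 0.32) for Hist1h1b, -1.03 (SE 0.39) for Hist1h1d, -0.75 (SE 0.34) for the Hist1h1e row and -0.43 (SE 0.48) for Hist1h1c. Limma's adjusted p was 0.909 for each of them, over all 8302 rows. No row passed an adjusted p of 0.05 with all libraries (0% called in either direction), and 100 rows, or 1.20%, had an unadjusted limma p under 0.05 in either direction. At an unadjusted limma p under 0.05 there were 3 of the 6 H1 rows tested, all lower in KO (Hist1h1a, Hist1h1b and Hist1h1d), against 0.458% of all rows in that direction. The exact two-sided permutation test gave p = 0.1 for Hist1h1a, Hist1h1b, Hist1h1d and the Hist1h1e row, the smallest p that 3 against 3 allows, and p = 0.5 for Hist1h1c, whose log2 fold change was 0.08 without KO replicate 3. All 5 replication-dependent members had a fitted value below 0, as had 53.0% of all rows. Their median was -1.02, beside -0.02 for all rows tested and -0.29 for the 415 rows with transcripts of 500 to 1000 bases.

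Leaving out WT replicate 3 could not make the same 4 rows overlap, since every KO library already lay below every WT library. Their differences were smaller without that library. The log2 fold changes were then -0.88 (SE 0.18) for Hist1h1a, -0.74 (SE 0.24) for Hist1h1b, -0.57 (SE 0.16) for Hist1h1d, -0.34 (SE 0.12) for the Hist1h1e row and -0.52 (SE 0.50) for Hist1h1c, and limma's adjusted p was 1 for each. Mean KO levels were 0.535 times the mean of WT replicates 1 and 2 for Hist1h1a, 0.608 times for Hist1h1b, 0.673 times for Hist1h1d and 0.764 times for the Hist1h1e row. In that fit 1 row of the table passed, as higher in KO (0.0120%), and all 5 members had a fitted value below 0, as had 55.0% of rows. Groups did not overlap in this direction in 5.90% of rows without that library, and 4 of the 6 H1 rows had an unadjusted limma p under 0.05 as lower, against 0.699% of all rows. In that fit the median of the rows with transcripts of 500 to 1000 bases was 0.05 and that of the 5 members -0.57.

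**Figure D2:**
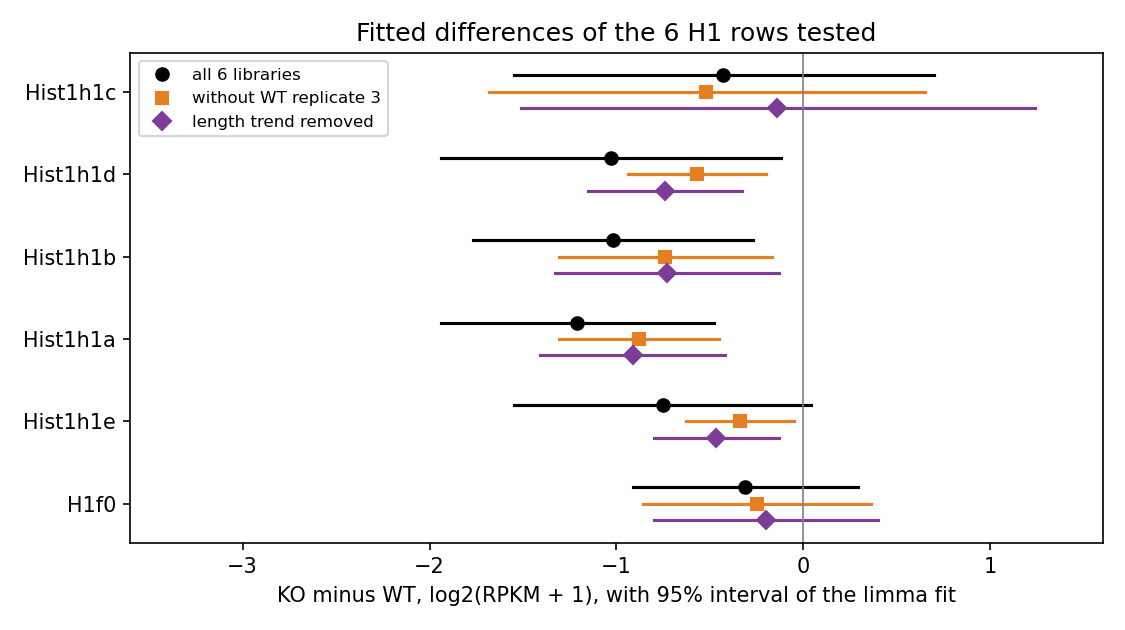
KO minus WT difference on the log2(RPKM + 1) scale for the 6 H1 rows tested, with 95% intervals of the limma fit, for all 6 libraries (circles), without WT replicate 3 (squares) and with the length trend of each library removed (diamonds). All points lie below 0, and the intervals of Hist1h1c and H1f0 span 0 in each fit. That of the Hist1h1e row spans 0 with all 6 libraries (-1.55 to 0.04).

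Removing the trend of values on transcript length in every library left the direction of these members in place. The log2 fold change was then -0.91 for Hist1h1a, -0.73 for Hist1h1b, -0.74 for Hist1h1d, -0.47 for the Hist1h1e row and -0.14 for Hist1h1c, with a limma adjusted p of 0.962 to 0.978. At an unadjusted limma p under 0.05 there were then 4 of the 6 H1 rows, against 0.689% of the 8269 rows in the fit that were lower in KO. With both the length trend and WT replicate 3 removed, the values were -0.91, -0.77, -0.60, -0.37 and -0.55 in that order. The 5 tested RNAs without a tail, Rn45s among them, were all highest in WT replicate 3, as were these members except Hist1h1c, with a median of 2.16 above their mean over all libraries. Their part in the result was not tested beyond leaving that library out. Without WT replicate 3 their log2 fold changes were 0.04 for Rn45s, -0.30 for Rmrp, -0.24 for Rpph1, -0.47 for Rnu11 and 1.56 for Rnu12, with a median of -0.24.

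Replicate numbers run from 1 to 3 in either group, and a check given with the methods took them to pair the libraries. That check gave weak support for the pair numbered 2. KO was lower in 3 of 3 pairs for Hist1h1a, Hist1h1b, Hist1h1d, the Hist1h1e row, H1f0 and H1fx, and in 2 of 3 for Hist1h1c, where KO replicate 2 was above WT replicate 2 (347 and 322 RPKM). For Hist1h1a, Hist1h1b, Hist1h1d and the Hist1h1e row any pairing gives 3 of 3, since their groups did not overlap. KO was lower in all 3 pairs in 20.1% of rows tested. With the replicate block limma's adjusted p was 0.715 for all 6 H1 rows tested, and 4 of them had an unadjusted p under 0.05 as lower, against 2.16% of rows. With the block and without WT replicate 3, which leaves 2 complete pairs, it was 0.0826 for Hist1h1a (log2 fold change -0.70), 0.0913 for Hist1h1d (-0.68) and 0.239 for Hist1h1b (-0.49), and 12 rows of the whole table passed. Hist1h1c had a log2 fold change of -0.0 in that fit. With so few pairs, these limma p-values rest largely on spread pooled over all rows.

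H1f0, the replacement form, was at 13.4, 23.1 and 14.2 RPKM in KO libraries and 15.9, 24.2 and 22.6 RPKM in WT libraries, or 16.9 ± 5.39 and 20.9 ± 4.38 (SD, n = 3 each). The groups overlapped, and the libraries fell into a low and a high set that did not follow the labels. The log2 fold change was -0.31 (95% interval -0.91 to 0.29, limma adjusted p = 0.909), the exact two-sided permutation test gave p = 0.3, and the value was -0.25 without WT replicate 3. It ranged from -0.55 without KO replicate 2 to -0.17 without KO replicate 1. H1fx was at 0.107, 0.375 and 0.134 RPKM in KO libraries and 0.126, 0.486 and 0.319 RPKM in WT libraries. Its mean was under the filter of 1 RPKM, so it was not among the 8302 rows. The exact two-sided permutation test gave p = 0.6, and limma with no filter an adjusted p of 1. It took the same low and high sets as H1f0, with KO replicate 2 and WT replicates 2 and 3 high.

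The libraries high in H1f0 were those with transcripts of the Y chromosome. Eif2s3y, a Y-linked translation factor gene, was at 0.0227, 48.8 and 0 RPKM in KO libraries and 0, 34.7 and 39.5 RPKM in WT libraries. Xist, the RNA of the inactive X chromosome, was at 122, 0.0253 and 59.3 RPKM in KO libraries and 93.1, 0.0776 and 0.0230 RPKM in WT libraries. Y-linked transcripts were thus present in 1 of 3 KO libraries and in 2 of 3 WT libraries, which is not in the labels and was seen after the values were examined. Among the libraries with Y-linked transcripts H1f0 was at 23.1 RPKM in KO libraries and at 22.6 and 24.2 RPKM in WT libraries. Among those with Xist it was at 13.4 and 14.2 RPKM in KO libraries and at 15.9 RPKM in WT libraries. With a term for Y-linked transcripts the log2 fold change of H1f0 was -0.11 (95% interval -0.50 to 0.29). Hist1h1a, Hist1h1b, Hist1h1d and the Hist1h1e row were lower in KO in both kinds of library. Hist1h1c was lower in KO among the libraries with Xist (a difference of -1.01 on the log2 scale) and not among those with Y-linked transcripts (0.05). Hist1h1a was at 16.1 RPKM in KO libraries and 27.7 and 54.2 RPKM in WT libraries among libraries with Y-linked transcripts, and at 16.1 and 10.9 RPKM in KO libraries and 26.0 RPKM in WT libraries among those with Xist. Its log2 fold change with the term was -1.07, that of Hist1h1b -0.85, of Hist1h1d -0.93 and of the Hist1h1e row -0.61, with a limma adjusted p of 1 for each. These sets hold 1 or 2 libraries per group, and a relation of H1f0 to sex was not tested.

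**Figure D3:**
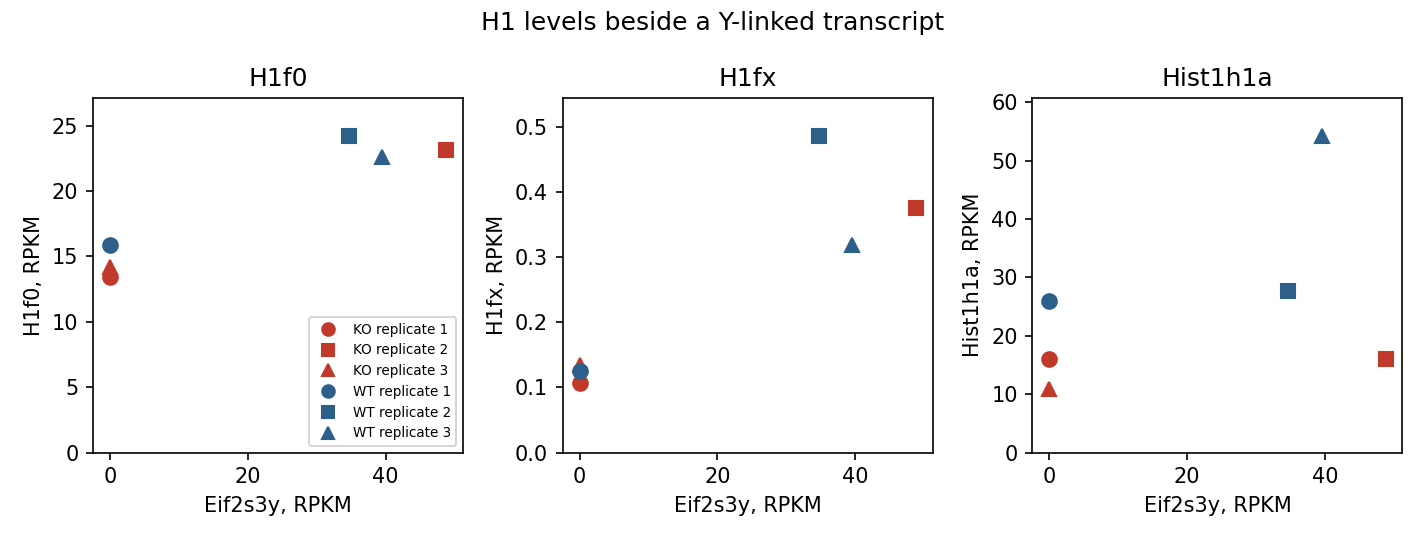
RPKM of H1f0, H1fx and Hist1h1a against RPKM of the Y-linked gene Eif2s3y in each library, KO in red and WT in blue, with marker shapes for the replicate. H1f0 and H1fx are high in the 3 libraries with Eif2s3y whatever the label. Hist1h1a is lower in the KO libraries on both sides, which follows from its groups not overlapping.

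The makeup of the H1 transcripts can be read within a library, where a scaling shared by all genes cancels. A shift tied to transcript length or to a missing tail does not cancel. In WT replicate 3 the median deviation was 0.88 for short transcripts and 2.16 for RNAs without a tail. The effect of such shifts on the values below was not tested. Hist1h1c made up 81.4%, 73.1% and 55.9% of the summed H1 RPKM in KO replicates 1 to 3 and 76.3%, 63.0% and 47.3% in WT replicates 1 to 3. Its share was higher in KO in each numbered pair, and the groups overlapped. Hist1h1a, Hist1h1b, Hist1h1d and the Hist1h1e row together summed to 100, 104 and 98.2 RPKM in KO libraries and 152, 164 and 364 RPKM in WT libraries. The KO libraries thus differed little among themselves in this sum. H1f0 stood at 0.133, 0.223 and 0.144 times that sum in KO and 0.105, 0.147 and 0.0620 times in WT, higher in KO in each pair with overlapping groups. The mean log2 value of H1f0 and H1fx less that of the 5 replication-dependent members was higher in KO by 0.67, and by 0.43 without WT replicate 3, beside a spread within groups of 0.42 (SD). H1fx lies below the filter, so the pseudocount sets much of its part, and a shared scaling does not fully cancel there. The difference was 0.54 at a pseudocount of 0.1, and 0.31 without WT replicate 3 and with the replicate block. This difference is a description, with no test.

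**Figure D4:**
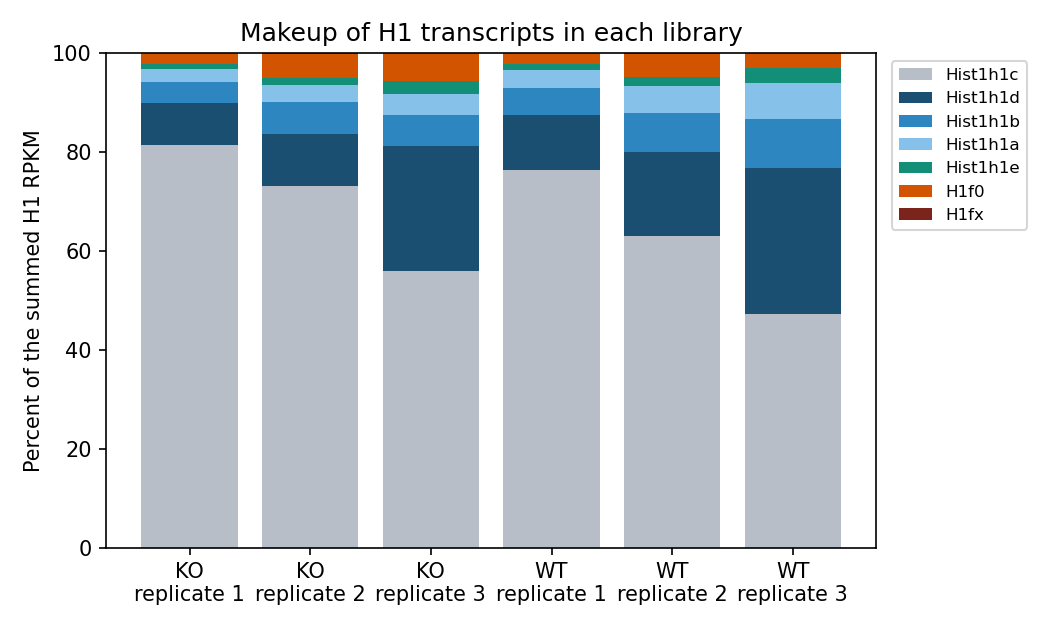
Percent of the summed H1 RPKM taken by each of the 7 genes in every library, KO libraries left and WT libraries right. Hist1h1c takes 47.3% to 81.4%, and its share is higher in KO than in the WT library of the same number in all 3 pairs.

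The replication-dependent core histones, which form the nucleosome and are transcribed with H1 in S phase, had a like direction. Of 56 listed rows 49 were tested, and 46 of them had a lower fitted value in KO, with a median log2 fold change of -0.84, and -0.38 without WT replicate 3. Quantile and upper-quartile scaling gave medians of -0.82 and -0.75. With the length trend removed the median was -0.58, and -0.43 when WT replicate 3 was also left out. None passed the limma test with all libraries, without WT replicate 3 or with the replicate block. With both the block and the loss of that library, Hist1h2bl (log2 fold change -1.20, limma adjusted p = 0.0254) and Hist2h2bb (-0.93, 0.0299) passed. That fit rests on the few complete pairs left, and the pairs were taken from these same values. In 11 rows the groups did not overlap, with KO below, beside the 2.36% given above for all rows. By gene these were Hist1h2ag, Hist1h2ak, Hist1h2bk, Hist1h2bl, Hist1h2bm, Hist1h2bn, Hist1h3f, Hist1h3h, Hist1h3i, Hist2h3b and the pseudogene Hist3h2bb-ps. Hist1h2bm was at 16.4, 16.8 and 21.6 RPKM in KO libraries and 26.0, 31.7 and 94.1 RPKM in WT libraries. WT replicate 3 was the highest library in 42 of the 49 rows. Sequences of histone paralogs are close, so reads could be split between copies.

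Replacement core histones overlapped between groups in all 8 rows tested. H3f3a was at 2160, 1950 and 3170 RPKM in KO libraries and 2680, 2260 and 4510 RPKM in WT libraries, H3f3b at 346, 535 and 284 RPKM in KO libraries and 399, 565 and 449 RPKM in WT libraries, and H2afz at 664, 716 and 979 RPKM in KO libraries and 812, 774 and 1490 RPKM in WT libraries. Their median log2 fold change was -0.33 with all libraries, -0.10 after quantile scaling and -0.04 without WT replicate 3. Without that library the median was thus near 0 for replacement core histones and -0.57 for the 5 replication-dependent H1 genes, a difference between lists that was not tested.

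Genes that make and process histone mRNA overlapped between the groups. Of 23 tested members 12 had a lower and 11 a higher fitted value in KO (median -0.03, and 0.05 and 0.07 after quantile and upper-quartile scaling), none passed the limma test and none had groups that did not overlap. Without WT replicate 3, 17 were lower and 6 higher (median -0.03). Without that library 1 row, Cstf2t, did not overlap, with KO below, beside the 5.90% given above for all rows. Slbp, which binds the stem-loop and is needed for processing and translation, was at 203, 199 and 267 RPKM in KO libraries and 233, 228 and 277 RPKM in WT libraries. Npat, the coactivator of histone genes at the start of S phase, was at 7.17, 6.09 and 5.16 RPKM in KO libraries and 6.27, 7.32 and 2.58 RPKM in WT libraries. Lsm11, a subunit of the U7 particle that directs cleavage, was at 0.637 to 0.804 RPKM in KO libraries and 0.611 to 0.677 RPKM in WT libraries, below the filter. Among 14 proteins that bind or carry H1, 9 had a lower and 5 a higher fitted value (median -0.07, and 0.05 and 0.04 after those scalings), none passing. Nasp, a chaperone of linker and core histones, was at 42.3, 50.7 and 52.7 RPKM in KO libraries and 46.9, 48.5 and 66.9 RPKM in WT libraries.

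Genes of S phase were also compared, since levels of replication-dependent mRNAs depend on how many cells replicate. In sorted bulk cells, fewer cells in S phase and less H1 mRNA per replicating cell cannot be told apart. Of 28 S phase genes 24 had a lower fitted value in KO (median -0.19), none passed the limma test and none had groups that did not overlap. The median was -0.01 after quantile scaling (15 lower), -0.08 after upper-quartile scaling (20 lower) and -0.13 with the length trend removed (25 lower). In the numbered pairs, 17 of the 28 were lower in KO in all 3, beside the 20.1% given above for all rows. Without WT replicate 3, 17 were lower and 11 higher, with a median of -0.01. E2f1, a transcription factor of S phase entry that shares its row with Necab3, was at 35.2, 35.2 and 51.7 RPKM in KO libraries and 40.7, 42.2 and 72.8 RPKM in WT libraries. Pcna, the clamp of the replication fork, whose row also names Tmem230, was at 608, 618 and 931 RPKM in KO libraries and 727, 687 and 1090 RPKM in WT libraries. Erythroid maturation genes overlapped as well, with 3 of 12 lower and 9 higher in KO (median 0.08, and 0.30 and 0.19 after quantile and upper-quartile scaling, with 11 and 10 higher), none passing.

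**Figure D5:**
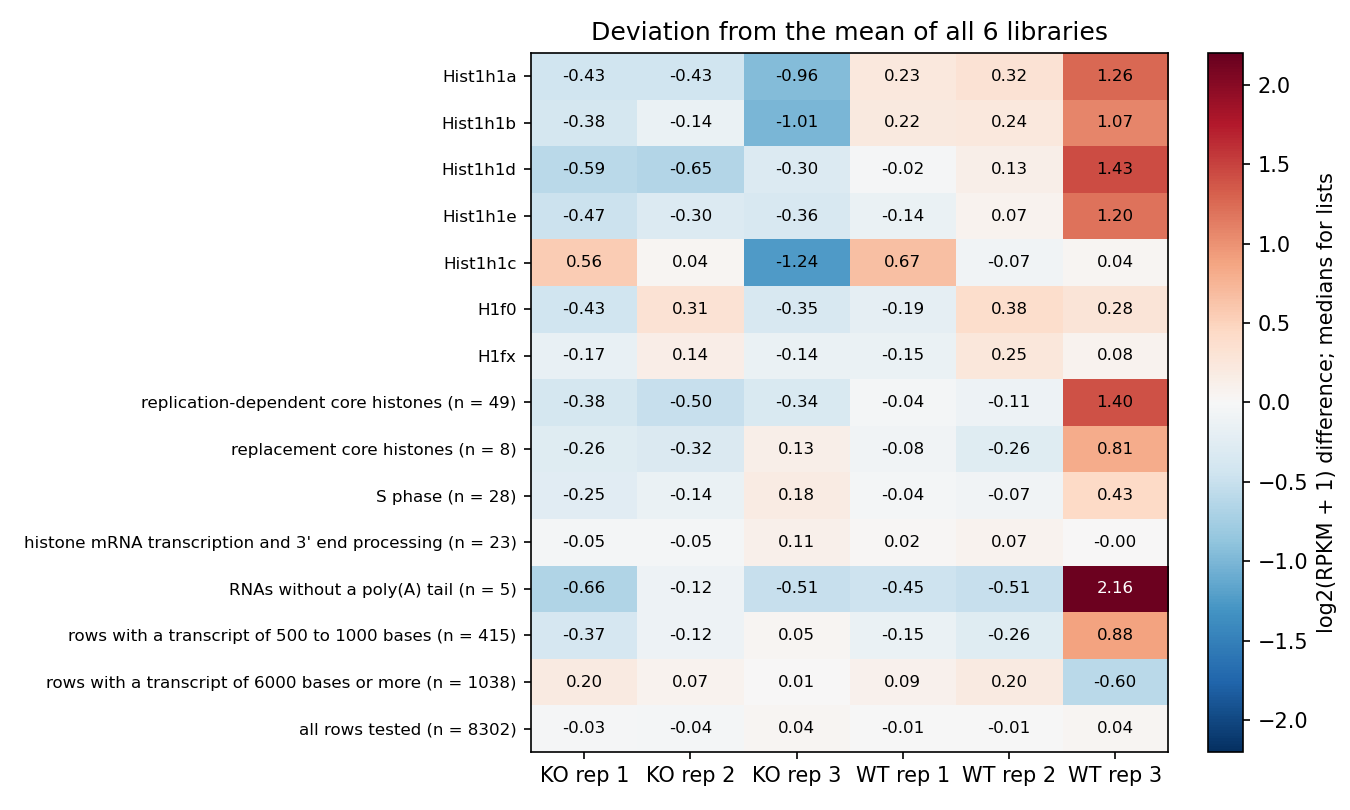
Deviation of each library from the mean of all 6 on the log2(RPKM + 1) scale, for the 7 H1 genes and, as medians, for gene lists and for rows grouped by transcript length; KO libraries are in the left columns and WT libraries in the right. WT replicate 3 is high for 4 replication-dependent H1 genes (1.07 to 1.43), core histones (1.40), RNAs without a tail (2.16) and short transcripts (0.88), while Hist1h1c stands at 0.04 there.

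The genes most like these patterns were looked up across the table. Over the 6 libraries, the mean log2 value of the 5 replication-dependent members was most like 2610001J05Rik, Snd1, Sapcd2, Cutc and Mt2 among 5425 rows of single genes with a mean of at least 5 RPKM (Pearson r 0.970 to 0.992). Mt2, a metallothionein, was at 4770, 4980 and 4060 RPKM in KO libraries and 6370, 5220 and 9390 RPKM in WT libraries. H1f0 was most like Htatsf1, Mms19, Eif2s3y, H2afy and Ddx39b (r 0.961 to 0.996). H2afy, which encodes the histone variant macroH2A, was at 9.46 to 11.2 RPKM in KO libraries and 10.2 to 11.5 RPKM in WT libraries. These likenesses describe 6 libraries and were the closest of many, so they carry no test. The germ cell forms H1fnt, H1foo and Hils1 were listed at 0 in all libraries, and Hist1h1t was at 0.0507 to 0.435 RPKM in KO libraries and 0.0813 to 0.297 RPKM in WT libraries.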

How the data were processed

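The authors deposited RPKM values, which scale reads by transcript length and library total. TopHat, Cufflinks and build mm9 are named in the submitters' processing notes; tool versions, annotation and strandedness were not given in the sources used here. Of 23119 rows, 25 with a number for a name were dropped (a mean of 0.158% of the RPKM sum). Limma 3.58.1 (R 4.3.3) was applied to log2(RPKM + 1) for 8302 rows averaging 1 RPKM or more, using its trend option and Benjamini-Hochberg adjustment over all rows (threshold 0.05), without a block. This scale understates changes of low genes. Members were also compared by an exact permutation test of RPKM. The fit was checked on simulated data.

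Members, lists and tests were chosen with earlier results of these data known. All members are named, and from each list fixed genes plus those past 0.5 (log2) whose groups did not overlap. Transcript lengths, the longest GENCODE transcript capped at the RefSeq span, covered 99.6% of tested rows. Deviations from group means correlated at 0.46, 0.17 and 0.53 between libraries numbered 1, 2 and 3. Each exceeded 0.1, so the numbers were taken as pairs, from the values and not from a label. WT replicate 2 correlated more with KO replicate 1 (0.4) than with KO replicate 2 (0.17), so that pair is uncertain. In pair 3 the KO library held Xist and the WT library Y-linked transcripts. Alternatives were pseudocounts, filters, scalings, no trend, length trend removed, the block and single libraries left out. The Y-linked term and the settings combining the loss of WT replicate 3 with another change were chosen after seeing the data. Figures used Python 3.11.15 and matplotlib 3.10.9.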

Additional observations from a re-analysis of the deposited data

How the results depend on the processing

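Across up to 18 alternatives per gene, Hist1h1a, Hist1h1b, Hist1h1d, the Hist1h1e row and H1f0 kept a lower value in KO, and none passed an adjusted p of 0.05; for Hist1h1a the adjusted p ranged from 0.0826 to 1. Hist1h1c turned to 0.08 without KO replicate 3, and its value with single libraries left out ranged from -0.82 to 0.08. Without WT replicate 3 and with the replicate block its value was -0.0. H1fx had a difference of -0.12 at a pseudocount of 1 and -0.42 at 0.1, which shows how far the pseudocount sets the size for a gene near 0. The median of the 5 replication-dependent members ranged from -1.17 to -0.57 with single libraries left out, the last without WT replicate 3. It was -0.60 without that library and with the length trend removed, -0.49 without it and with the replicate block, and -0.58 without it and with the term for Y-linked transcripts. The replicate block with all libraries left each log2 fold change as it was (-1.21 for Hist1h1a) and changed no call. Rows past the threshold over the whole table numbered 0 with all libraries, 13 with no filter on low values, 0 to 2 with single libraries left out, 12 without WT replicate 3 and with the block, and 1 without it and with the length trend removed or with the term for Y-linked transcripts; no H1 gene was among them, and the 12 included the core histones Hist1h2bl and Hist2h2bb. Scalings kept the direction of the 6 tested H1 rows. Upper-quartile scaling moved the median of all rows to 0.07. H1fx was not fitted under the scalings, the length trend, the block or the term, because its mean is below the filter. Depth is unknown, which limits what can be said of H1fx and other genes near 0.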

Other observations

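Core histone rows that did not peak in WT replicate 3 are listed here as values. Of the 49 tested rows 7 had their highest level in another library, as Hist1h1c did among the replication-dependent linker histones. Hist1h4i was at 226, 189 and 61.0 RPKM in KO libraries and 155, 72.3 and 185 RPKM in WT libraries. Hist2h3c1 was at 41.8, 11.3 and 5.39 RPKM in KO libraries and 37.0, 13.0 and 3.12 RPKM in WT libraries, highest in the libraries numbered 1 of both groups. Hist1h2bg was at 37.9, 36.7 and 17.3 RPKM in KO libraries and 46.9, 47.9 and 23.7 RPKM in WT libraries, and the row of Hist3h2a and Trim17 at 50.3, 62.8 and 18.4 RPKM in KO libraries and 51.4, 55.8 and 27.5 RPKM in WT libraries, both lowest in the libraries numbered 3. Hist1h1c was also lowest in KO replicate 3, whereas WT replicate 3 was not its lowest WT library. Hist1h2ac, Hist1h4c and Hist2h2be were the others. These genes were chosen after their values were seen.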
